A study of Homo sapiens with 42 samples.

Results

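H1299 cells 24 h after 2 Gy of gamma radiation were compared with H1299 cells at 0 h, which the labels describe as before irradiation. All 18404 genes that the deposited table resolves to 1 symbol were members, each taken from its brightest row. The comparison uses 9 of the 42 arrays of the series, 3 at 24 h and 6 at 0 h. H1299 is an established human non-small cell lung carcinoma line, which the series text calls radioresistant and which is known to lack p53. The cells were growing exponentially as a monolayer in serum-containing medium, with no other agent. The other arrays cover H1299 at 2, 4, 8 and 12 h and the radiosensitive large-cell line H460 at the same 6 times, with 21 arrays per line. Arrays of a group are labelled biological replicates. No array at a later time is labelled unirradiated, and the effects of 2 Gy and of a further day in culture therefore cannot be told apart. The labels' protocol also speaks of control cells kept without irradiation for matching times, and whether any of the 6 arrays at 0 h hold such cells could not be worked out.

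Levels are log2 intensities on Affymetrix whole-transcript arrays, and changes are differences of mean log2 level ± the standard error of the model, so that a change of 1 is 2-fold. A gene was called when the adjusted p (limma, Benjamini-Hochberg over all genes) was under 0.05. The array of 0 h replicate 2 stood apart before any comparison: the interquartile range of its levels was 3.24, against 3.57 to 3.69 on the other 0 h arrays and 3.64 to 3.72 on the 24 h arrays. Without it 2408 genes were called in place of 2161. As a check of the label, VIM, the filament vimentin of mesenchymal-like cells, stood between 11.72 and 12.02 at 0 h. The epithelial adhesion genes CDH1 and EPCAM had 0 h medians of 3.70 and 3.69. The full lists lay closer together, with median 0 h levels of 5.23 over 27 epithelial genes and 6.84 over 27 mesenchymal genes. VIM, CDH1 and EPCAM therefore do not speak for the whole lists. Of the markers of fibroblasts (10), leukocytes (14), endothelium (7) and lung lineage (11), 0 were called, and their mean levels at 24 h lay within 3.87 to 4.03, 4.22 to 4.35, 3.63 to 3.79 and 4.83 to 4.93. Of 8 neuroendocrine markers 1 was called. As 11.7% of all genes were called, a count of 0 says little in lists this small.

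Cells short of amino acids or with stress in the endoplasmic reticulum phosphorylate the translation factor eIF2, which lowers protein synthesis in general and lets the transcription factor ATF4 be made. ATF4, with C/EBP partners, binds composite sites in the promoters of genes for amino acid uptake, amino acid synthesis and tRNA charging. Signalling from growth factor receptors through the MAP kinases ERK1 and ERK2 in turn switches on its own inhibitors, the Sprouty proteins and the dual-specificity phosphatases, whose transcripts are used as a readout of ERK activity.

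At 24 h, 2161 genes were called (11.7%). Of 18404 genes 1570 were higher (8.53%) and 591 were lower (3.21%), and an unadjusted p was under 0.05 in 4218 (22.9%). The changes were small: 17 called genes (0.0924%) were at least 2-fold higher, 5 (0.0272%) were at least 2-fold lower, and the median change of all genes was 0.00. In 1730 genes (9.4%) all 3 arrays at 24 h lay above all 6 at 0 h, and in 731 (3.97%) all lay below. The split depended on scaling. It was 1361 higher and 1100 lower after quantile normalization and 1114 and 746 after centring each array on its median, and 1629 and 1060 with the width of each array as a covariate. Without 24 h replicate 1 or 3 the calls numbered 1398 and 1293. The RNA came from whole cultures, so fewer cells of a kind and less RNA per cell cannot be told apart.

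**Figure D1:**
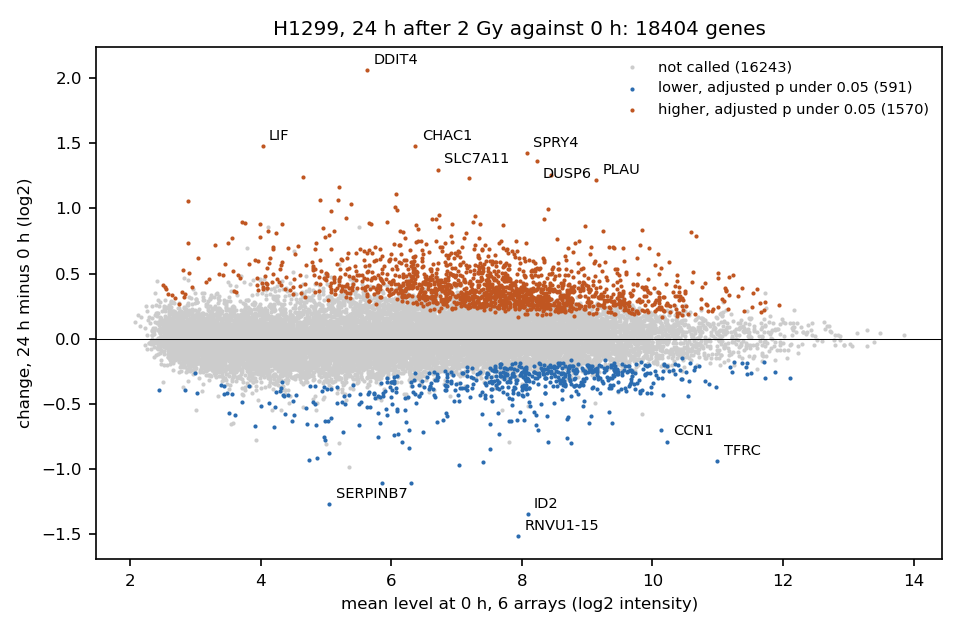
Change from 0 h to 24 h (log2, vertical axis) against the mean level over the 6 arrays at 0 h (log2 intensity, horizontal axis), 1 point per gene, with 1570 higher genes in orange, 591 lower genes in blue and all others in grey. DDIT4 stands alone at the top at 2.06, and RNVU1-15 is lowest at -1.51.

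Most measured targets of ATF4 were higher at 24 h. Of 45 measured targets, 34 rose and 2 fell, with a median change of 0.41, against 8.53% and 3.21% of all genes and a median of 0.00. The counts were also 34 and 2 after quantile normalization, after median centring and without 0 h replicate 2, and leaving out any 1 of the 9 arrays gave between 29 and 34 rises. To show where the site stands, the stretch upstream of the gene start is printed for the 8 targets that rose and hold the motif TGATGNAA there, in capitals, read on either strand (RefSeq, GRCh38.p14, each 5′ to 3′ on the strand of the gene).
ASNS (chr7:97872439-97872506, minus strand, change 0.65): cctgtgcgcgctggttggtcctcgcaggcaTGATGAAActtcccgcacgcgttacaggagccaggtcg
CHAC1 (chr15:40953232-40953299, plus strand, change 1.48): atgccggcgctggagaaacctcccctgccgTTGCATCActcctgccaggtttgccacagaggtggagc
AARS1 (chr16:70289656-70289723, minus strand, change 0.69): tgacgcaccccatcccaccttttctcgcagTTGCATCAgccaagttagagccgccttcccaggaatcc
CEBPG (chr19:33374041-33374108, plus strand, change 0.53): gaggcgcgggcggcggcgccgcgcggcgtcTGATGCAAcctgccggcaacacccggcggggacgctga
BCAT1 (chr12:24949112-24949179, minus strand, change 0.42): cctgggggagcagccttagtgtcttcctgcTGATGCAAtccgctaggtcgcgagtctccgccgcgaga
SLC1A5 (chr19:46784874-46784941, minus strand, change 0.38): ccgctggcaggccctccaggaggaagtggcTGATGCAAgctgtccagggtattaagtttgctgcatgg
GARS1 (chr7:30594815-30594877, plus strand, change 0.37): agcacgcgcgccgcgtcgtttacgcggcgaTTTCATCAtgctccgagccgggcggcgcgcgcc
HERPUD1 (chr16:56931936-56932003, plus strand, change 0.31): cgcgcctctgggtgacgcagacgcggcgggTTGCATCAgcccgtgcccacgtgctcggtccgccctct
The motif, in either orientation, was in 1270 of 35116 promoter windows of the RefSeq table (3.62%), in 511 of the 14230 tested genes with a window (3.59%) and in 15 of 39 targets with a window (38.5%). Among the 29 targets that rose and had a window it was in 10 (34.5%). A match is a description of the letters and was not tested as a bound site, and such sites were part of how many of these genes came to be known as targets.

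DDIT4, CHAC1 and GDF15, all targets of ATF4, were more than 2-fold higher. DDIT4 (row 7928308), an inhibitor of the growth kinase mTORC1, read 7.73, 7.67 and 7.68 on the 24 h arrays, against 5.26 at the lowest, 5.68 at the median and 5.83 at the highest 0 h array, a change of 2.06 ± 0.13 (4.17-fold, adjusted p = 4.44e-11). CHAC1 (row 7982868), which degrades glutathione, read 7.88, 8.03 and 7.64 against 6.24, 6.35 and 6.50 (2.79-fold, adjusted p = 3.15e-11). In both genes the 24 h arrays lay more than 1 log2 unit above every 0 h array. GDF15, a stress-induced cytokine, read 6.58, 6.36 and 6.14 against 5.23 at the 0 h median and 5.47 at the highest 0 h array, a change of 1.17 ± 0.18. STC2, a secreted glycoprotein of the stress response, rose by 0.93 ± 0.10. SESN2, a leucine sensor that restrains mTORC1, rose by 0.67 ± 0.095 from a 0 h median of 6.58, and its 24 h arrays of 7.37, 7.21 and 7.14 did not overlap the 0 h arrays.

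**Figure D2:**
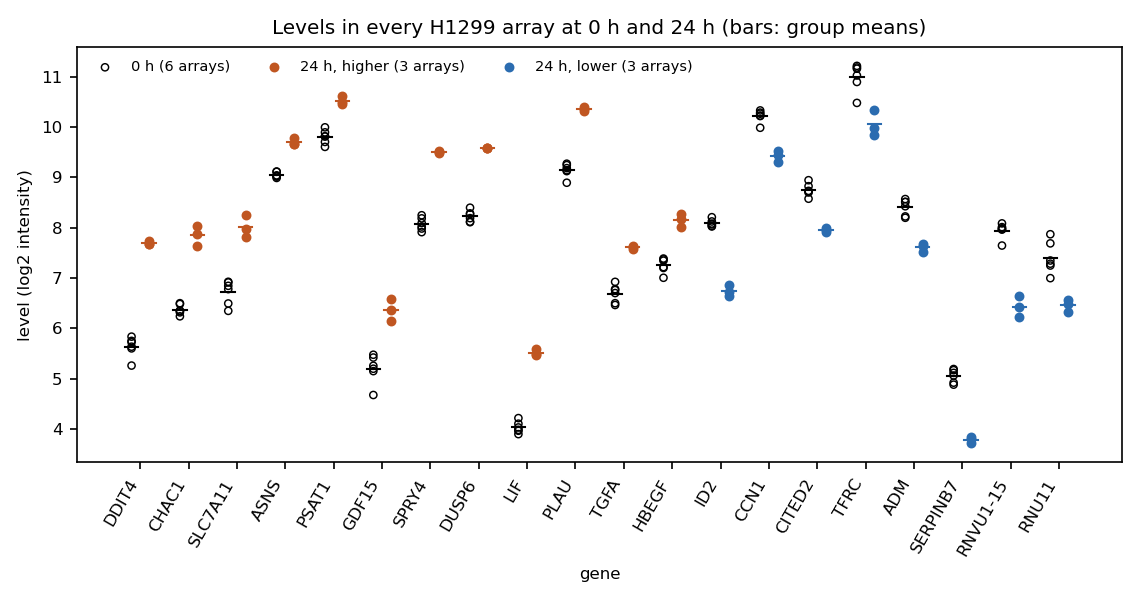
Level (log2 intensity) of 20 genes on every H1299 array, with 0 h arrays as open circles and 24 h arrays as filled circles (orange where the gene was higher, blue where lower), and a bar at each group mean. In each of the 20 genes the 24 h arrays lie on one side of the 0 h arrays, and the gap is widest for DDIT4.

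Genes for amino acid uptake, synthesis and tRNA charging were among the rises. SLC7A11, the cystine importer, read 7.82, 7.96 and 8.26 at 24 h, against 6.35, 6.81 and 6.92 at the lowest, median and highest 0 h array, a change of 1.30 ± 0.12 (2.46-fold, adjusted p = 3.64e-08). Of 32 amino acid transporters, 10 rose and 1 fell (median 0.09). They included SLC1A4, a carrier of alanine and serine (0.58 ± 0.094), SLC6A9, a glycine carrier (0.55 ± 0.095), SLC7A5, the light chain of the leucine exchanger (0.42 ± 0.060), and SLC1A5, a glutamine carrier (0.38 ± 0.079). The other row of SLC1A5 on the arrays gave -0.01. SLC38A1, a glutamine carrier, rose by 0.43 ± 0.080. Without 0 h replicate 2 the transporters had 11 rises and 3 falls.

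Of 19 enzymes of serine and one-carbon metabolism, 8 rose and 0 fell (median 0.18). PSAT1, the aminotransferase of serine synthesis, read 10.45, 10.51 and 10.63 at 24 h against 9.61, 9.81 and 10.00 at 0 h, a change of 0.72 ± 0.077. ALDH1L2, a mitochondrial folate enzyme, rose by 1.07 ± 0.11, MTHFD2, its neighbour in the mitochondrial folate pathway, by 0.41 ± 0.055 and SHMT2, the mitochondrial serine hydroxymethyltransferase, by 0.38 ± 0.081. ASNS, which makes asparagine, read 9.66, 9.66 and 9.78 against 8.99, 9.03 and 9.12, and its 0 h arrays spread over less than the gap to the 24 h arrays.

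Of 19 cytosolic aminoacyl-tRNA synthetases, 11 rose and 0 fell (median 0.32), while of 16 mitochondrial ones 1 rose and 1 fell (median 0.08). The cytosolic enzymes charge tRNA for the ribosomes of the cytoplasm and are separate genes from most mitochondrial ones. AARS1, for alanine, read 10.58, 10.53 and 10.83 against 9.55, 10.00 and 10.18 at 0 h, a change of 0.69 ± 0.090. CARS1, for cysteine, rose by 0.62 ± 0.089, MARS1, for methionine, by 0.59 ± 0.081, and TARS1 and EPRS1, for threonine and for glutamate with proline, by 0.46 ± 0.076 and 0.46 ± 0.073. After quantile normalization, and without 0 h replicate 2, 11 cytosolic synthetases rose and 2 fell.

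ATF4 itself was not called. It read 10.23, 10.36 and 10.16 at 24 h against 9.91, 10.14 and 10.22 at 0 h, overlapping, with a change of 0.14 ± 0.066 (adjusted p = 0.196), and its other row gave -0.08. PPP1R15A, the phosphatase subunit that reverses eIF2 phosphorylation, and ATF3, a stress-induced transcription factor, were the 2 targets that fell. PPP1R15A read 6.87, 6.92 and 6.95 against 7.50, 7.68 and 7.74 and changed by -0.73 ± 0.076. ATF3 changed by -0.39 ± 0.11 and was named after its values were seen, and its call was lost without 24 h replicate 2 or 3 (adjusted p = 0.0552 and 0.148). Of 30 genes of the endoplasmic reticulum stress response, 5 rose and 0 fell (median 0.11): the chaperones HSP90B1 (0.38 ± 0.058) and HSPA5 (0.25 ± 0.074), the transcription factor XBP1 (0.28 ± 0.060), HERPUD1 (0.31 ± 0.083), which takes part in the disposal of misfolded proteins, and the lectin chaperone CANX (0.20 ± 0.062). Without 24 h replicate 2 the call of HERPUD1 was lost (adjusted p = 0.073), and without 24 h replicate 1 or 3 that of HSPA5 (0.14 and 0.15). That of CANX was lost without 0 h replicate 1 and without each 24 h array, so that the list had 3 rises without 24 h replicate 1 or 2.

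**Figure D3:**
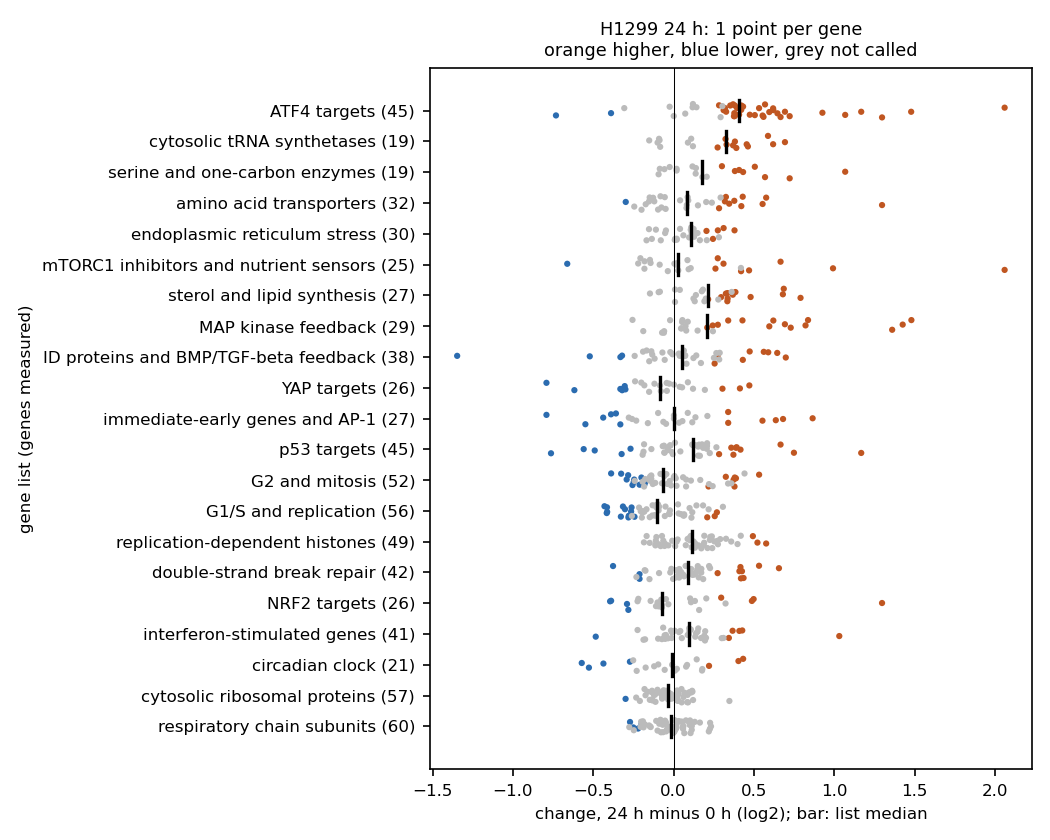
Change from 0 h to 24 h (log2, horizontal axis) of every measured gene of 21 lists, 1 point per gene, orange where higher, blue where lower and grey where not called, with a bar at each list's median and the number of genes in brackets. The ATF4 targets have the highest median (0.41), and cytosolic ribosomal proteins and respiratory chain subunits lie close to 0.

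Of 29 measured feedback genes of MAP kinase signalling, 14 rose and 0 fell (median 0.21). After quantile normalization or median centring 13 rose and 1 fell. SPRY4 (row 8114797), a Sprouty inhibitor of receptor signalling, read 9.50, 9.52 and 9.48 at 24 h against 7.91, 8.06 and 8.25 at the lowest, median and highest 0 h array, a change of 1.43 ± 0.066 (2.69-fold, adjusted p = 1.23e-13). DUSP6 (row 7965335), the phosphatase that inactivates ERK, read 9.59, 9.58 and 9.59 against 8.11, 8.23 and 8.40, a change of 1.36 ± 0.061 (2.57-fold, adjusted p = 1.23e-13). The 24 h arrays of each gene were close together, more than 1 log2 unit above every 0 h array.

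Further rises in the list were smaller. ERRFI1, an inhibitor of the EGF receptor, rose by 0.82 ± 0.067, PHLDA1 by 0.84 ± 0.061 and DUSP5, a nuclear ERK phosphatase, by 0.62 ± 0.057. Of 12 EGF-family ligands and receptors 2 rose and 0 fell (median 0.05), and both were ligands. HBEGF read 8.17, 8.01 and 8.28 against 7.004, 7.28 and 7.39 (0.90 ± 0.088). TGFA read 7.61, 7.64 and 7.57 against 6.46, 6.73 and 6.92 (0.92 ± 0.13). The receptor gene EGFR gave -0.05 ± 0.074 (adjusted p = 0.796), with overlapping arrays. Immediate-early genes were split, with 6 of 27 higher and 6 lower: IER2 rose by 0.87 ± 0.064 and the AP-1 subunit gene JUNB by 0.68 ± 0.088, while KLF10 fell by 0.44 on the log2 scale. EGFR was named for its role after its values were seen.

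LIF, PLAU and SPP1, which encode secreted proteins, were higher by more than 1 log2 unit. LIF (row 8075310), a cytokine of the interleukin-6 family, read 5.46, 5.58 and 5.49 at 24 h against 3.90, 4.00 and 4.21 at 0 h, a change of 1.48 ± 0.10. Since the table has no detection calls, whether LIF was above background at 0 h is not known, and no fold is given. PLAU, the urokinase plasminogen activator, read 10.41, 10.35 and 10.32 against 8.89, 9.16 and 9.27, a change of 1.22 ± 0.064 (2.32-fold, adjusted p = 2.1e-12). SPP1, which encodes osteopontin, read 8.45, 8.39 and 8.43 against 7.03, 7.13 and 7.41 (1.23 ± 0.099). None of these 24 h arrays overlapped 0 h. PLAUR, the urokinase receptor, rose by 0.36 ± 0.062, MMP14, a membrane-bound matrix protease, by 0.55 ± 0.096 and VCAN, the matrix proteoglycan versican, by 0.99 ± 0.12. SERPINB7, an intracellular protease inhibitor, went the other way: 3.84, 3.71 and 3.81 at 24 h against 4.88, 5.09 and 5.19 at 0 h (-1.27 ± 0.13). Whether SERPINB7 was above background at 24 h is likewise not known.

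The matrix protease, serpin and plasminogen activator list as a whole had 6 of 30 genes higher and 1 lower (median 0.04), and 5 and 2 without 0 h replicate 1 or 24 h replicate 3. Of 32 secreted inflammatory factors 4 rose (12.5%, against 8.53% of all genes) and 0 fell (median 0.00), the others besides LIF and GDF15 being the lipase inhibitor ANGPTL4 (0.72 ± 0.10) and VEGFA (0.47 ± 0.084), which drives vessel growth. Without 0 h replicate 3 the list had 4 rises and 2 falls. The remaining large rises by the naming rule had no list in common: FAM9C (1.25 ± 0.11), CNIH3, an accessory protein of AMPA receptors (1.11 ± 0.11), SH3TC2 (1.06 ± 0.12), SAMD9, an interferon-responsive gene (1.03 ± 0.14), ZNF680, a zinc finger gene (1.01 ± 0.15), ARRDC3, an arrestin-domain adaptor (0.99 ± 0.069), and SCN9A, a voltage-gated sodium channel (0.98 ± 0.12).

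Among protein-coding genes the largest fall was in ID2, an inhibitor of basic helix-loop-helix transcription factors that is switched on by BMP signalling. ID2 (row 8040103) read 6.64, 6.73 and 6.86 at 24 h against 8.02, 8.07 and 8.21 at the lowest, median and highest 0 h array, a change of -1.35 ± 0.089 (2.54-fold lower, adjusted p = 1.71e-10). All 3 values lay more than 1 log2 unit below every 0 h array. Its paralogs moved less: ID4 gave -0.52 ± 0.092, ID3 gave -0.32 ± 0.089 with overlapping arrays, and ID1 gave -0.07 ± 0.11 (adjusted p = 0.787). ID1 and ID3 were named to complete the family after their values were seen, and the call of ID3 was lost without 24 h replicate 1 or 3 (adjusted p = 0.0828 and 0.136). The list of ID proteins and BMP or TGF-beta feedback genes had 8 of 38 higher and 4 lower (median 0.05; 7 and 2 without 24 h replicate 3), with HES1, a Notch target, at 0.59 ± 0.090 and the SMAD corepressor TGIF1 at 0.70 ± 0.11; another row of TGIF1 gave 0.11.

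Targets of the transcriptional coactivator YAP were 7 lower and 3 higher of 26 (median -0.08). CCN1, a secreted matricellular protein, read 9.52, 9.45 and 9.31 against 9.99, 10.25 and 10.33, a change of -0.79 ± 0.067. The lowest 0 h value of CCN1 was that of replicate 2. CCN2, its paralog, gave -0.33 ± 0.055 and AMOTL2, an angiomotin, -0.62 ± 0.093. CITED2, a coregulator that binds CBP and p300, read 7.95, 7.99 and 7.91 against 8.58, 8.73 and 8.94 (-0.80 ± 0.069). ADM, the peptide adrenomedullin and a common hypoxia marker, read 7.67, 7.64 and 7.52 against 8.20, 8.47 and 8.57 (-0.80 ± 0.084), although of 35 hypoxia and glycolysis genes 6 were higher and 2 lower (5 and 1 without 24 h replicate 1 or 2). NFKBIA, the inhibitor of NF-kB, gave -0.67 ± 0.086 and TNFAIP3, another NF-kB feedback gene, -0.45 ± 0.090, within a list of 23 that held 4 higher and 3 lower genes.

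TFRC, the transferrin receptor that brings iron into the cell, read 9.98, 9.84 and 10.34 at 24 h against 10.48, 11.09 and 11.22 at 0 h, a change of -0.94 ± 0.12 (1.92-fold lower, adjusted p = 5.98e-06). The 24 h arrays lay below all 0 h arrays, with replicate 3 close to the lowest of them. SPATA31G1, a testis gene, gave -1.11 ± 0.12, with -0.16 for its other row. MC5R, a melanocortin receptor, gave -0.88 ± 0.13, PLK2, a stress-induced kinase, -0.76 ± 0.092 and the olfactory receptor gene OR8G1 -0.79 ± 0.21. The call of OR8G1 was lost without 24 h replicate 1 (adjusted p = 0.14).

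Small nuclear RNAs, most of them RNA parts of the spliceosome, filled 7 places among the 20 named falls. Of 20 measured genes 11 fell and 0 rose (median -0.64). RNVU1-15 (row 7919560), a variant of U1, read 6.22, 6.43 and 6.64 at 24 h against 7.64, 7.98 and 8.09 at 0 h, a change of -1.51 ± 0.12 (2.86-fold lower, adjusted p = 9.15e-09). RNU11 and RNU4ATAC, of the minor spliceosome, gave -0.95 ± 0.14 and -0.97 ± 0.20, and RNU4-1, of the major one, -0.85 ± 0.16. RNU11 read 6.32, 6.57 and 6.48 against 6.997, 7.32 and 7.87, without overlap. The falls were not spread evenly over the class. Of 8 U1 and variant U1 genes 7 fell (median -0.74). Of 9 genes of U2, U4, U5, U6, U7 and 7SK only 2 fell and 0 rose (median -0.13), and 4 had positive changes. Of 175 small nucleolar RNAs, which guide modification of other RNAs, 25 fell and 0 rose (median -0.12). Without 0 h replicate 2 the falls among the latter numbered 43, and without 24 h replicate 1 they were 16. U1 variants, and SNORA2A and SNORA2B (-0.76 ± 0.18 and -0.75 ± 0.16), are near-identical copies whose probes may share signal, so single members are uncertain. The mean level of the 20 small nuclear RNAs ranged from 6.21 to 6.76 over the 0 h arrays and from 5.90 to 5.96 over the 24 h arrays. Their median was already -0.54 at 2 h and -0.63 at 4 h.

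Of 173 microRNA genes 6 rose (3.47%) and 7 fell, against 8.53% and 3.21% of all genes, from a median 0 h level of 3.34. Rises were thus rarer than among all genes and falls were near that share. The arrays read precursor and host transcripts together, so these values are not levels of mature microRNA. Those of the 2 clusters that changed are printed with the seed, bases 2 to 8, in capitals (RefSeq, GRCh38.p14).
hsa-miR-106b-5p (chr7:100094043-100094063, minus strand): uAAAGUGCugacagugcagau
hsa-miR-93-5p (chr7:100093815-100093837, minus strand): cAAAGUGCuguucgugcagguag
hsa-miR-25-3p (chr7:100093571-100093592, minus strand): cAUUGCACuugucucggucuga
hsa-miR-100-5p (chr11:122152275-122152296, minus strand): aACCCGUAgauccgaacuugug
hsa-let-7a-5p (chr11:122146568-122146589, minus strand): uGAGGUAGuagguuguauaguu
MIR106B and MIR93 share the seed AAAGUGC with the miR-17 family, known for targeting cell cycle inhibitors, and lie with MIR25 inside the replication gene MCM7. MIR106B read 5.23, 5.15 and 5.53 at 24 h against 5.79, 6.07 and 6.22 at 0 h (-0.74 ± 0.12), MIR93 gave -0.65 ± 0.14 and MIR25 -0.38 ± 0.086, none overlapping 0 h. The host gene MCM7 read 11.18, 11.01 and 11.09 against 10.80, 11.25 and 11.38, overlapping (-0.11 ± 0.083, adjusted p = 0.47). MIR100 read 3.41, 4.29 and 4.13 against 2.72, 2.82 and 3.26 (1.05 ± 0.21). Without detection calls it is not known whether MIR100 was above background. BLID, which is annotated within the MIR100 host locus, read 5.71, 5.86 and 6.13 against 4.32, 4.54 and 5.36 (1.24 ± 0.19). MIRLET7A2, of the same locus, rose by 0.89 ± 0.16, and MIR125B1, the third microRNA of the locus, gave 0.23 ± 0.14 (adjusted p = 0.359). MCM7, MIR93, MIR25, MIRLET7A2 and MIR125B1 were named after their values were seen.

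Targets of p53 were mixed in this line, 9 of 45 higher and 5 lower (median 0.12). CDKN1A (row 8119088), which encodes the cyclin-dependent kinase inhibitor p21, read 7.27, 7.29 and 7.31 at 24 h against 6.75, 6.87 and 6.99 at 0 h, a change of 0.42 ± 0.071 (1.33-fold, adjusted p = 0.000262). MDM2, the ubiquitin ligase for p53, read 9.54, 9.59 and 9.46 against 9.03, 9.13 and 9.32 (0.39 ± 0.059, adjusted p = 7.22e-05). Both were small and without overlap. PMAIP1, the BH3-only protein NOXA, rose by 0.75 ± 0.099, and its binding partner MCL1 by 0.65 ± 0.081. Of 28 BCL2 family and caspase genes these 2 rose (7.14%, against 8.53% of all genes) and 2 fell, so the list as a whole was near the share of all genes. GADD45B (-0.49 ± 0.073) and PLK2 were among the 5 p53 targets that fell. GDF15 and SESN2 are counted both here and among the ATF4 targets.

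Genes of G2 and mitosis were spread over both directions, 7 of 52 higher and 11 lower (median -0.07), and the lower side grew to 19 after quantile normalization and to 17 without 0 h replicate 2. The counts were 3 and 8 without 24 h replicate 1, 4 and 7 without replicate 2 and 3 and 7 without replicate 3, and 6 and 7 without 0 h replicate 3. HMMR, a spindle protein, read 8.81, 8.68 and 8.70 against 7.96, 8.21 and 8.41 (0.53 ± 0.090), and SMC4, a condensin subunit, rose by 0.39 ± 0.083. PLK1, the mitotic kinase, read 10.27, 10.22 and 10.22 against 10.27, 10.59 and 10.70 (-0.33 ± 0.070), and BIRC5, which encodes survivin, gave -0.29 ± 0.066. Of 56 genes of the G1/S transition and replication 3 rose and 12 fell (median -0.10), among them the origin subunit ORC1 (-0.41 ± 0.071), GINS2 (-0.42 ± 0.074) and the helicase subunit MCM5 (-0.32 ± 0.068). After quantile normalization 2 rose and 20 fell, and without 0 h replicate 2 it was 3 and 20. The rises numbered 0 without 24 h replicate 1 or 0 h replicate 3, and 1 without 24 h replicate 2 or 3. Of 49 replication-dependent histone genes 3 rose and 0 fell (median 0.11), with the linker histone H1-3 at 0.49 ± 0.086.

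Among 42 genes of double-strand break repair 8 rose and 3 fell (median 0.09). LIG4, the ligase of end joining, read 6.30, 6.35 and 6.45 against 5.37, 5.65 and 6.07 (0.66 ± 0.12), RIF1, which holds back end resection, rose by 0.53 ± 0.079 and RAD50, of the break-sensing complex, by 0.43 ± 0.078. NHEJ1, another end-joining factor, gave -0.38 ± 0.069. Of 22 checkpoint genes 3 rose and 2 fell, and the kinase gene ATM was among the rises (0.52 ± 0.11). Without 24 h replicate 3 the repair list had 5 rises and 1 fall and the checkpoint list 1 of each, and without 0 h replicate 2 the checkpoint list had 3 and 4.

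Synthesis of sterols and fatty acids had 12 of 27 genes higher and 0 lower (median 0.22). SCD, the stearoyl-CoA desaturase, read 11.38, 11.50 and 11.52 against 10.36, 10.72 and 10.86 (0.79 ± 0.078), ACSS2, which makes acetyl-CoA from acetate, rose by 0.69 ± 0.088, STARD4, a sterol carrier, by 0.68 ± 0.092 and SREBF1, a regulator of the pathway, by 0.37 ± 0.063. Of 21 clock genes 3 rose and 4 fell (median -0.01). The repressors NR1D2 (-0.57 ± 0.091), CIART (-0.53 ± 0.12) and PER2 (-0.44 ± 0.099) were lower, and none overlapped 0 h. The 3 rises among clock genes were all lost without any 1 of the 24 h arrays. Of 57 cytosolic ribosomal proteins 0 rose and 1 fell (3 without 0 h replicate 2), and of 60 respiratory chain subunits 0 rose and 4 fell (1 without 24 h replicate 1).

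The 24 h arrays were then set against the 3 arrays at 12 h to ask what changed late. In this comparison 1536 genes were called (8.35%), of which 596 were higher (3.24%) and 940 lower (5.11%), and centring on the median made it 389 and 1155. With array width as a covariate the split was 936 and 656. The calls numbered 523 without 24 h replicate 2, 543 without 24 h replicate 1, and 557, 967 and 1017 without 12 h replicates 2, 3 and 1. Of 45 ATF4 targets 26 were higher and 0 lower (median 0.46). Against the shared 0 h arrays the list had stood at 9 higher and 6 lower at 12 h (median -0.00), when 16.6% of all genes were higher and 13.1% lower. CHAC1 gave -0.00 at 12 h and 1.48 at 24 h against 0 h, and 1.48 ± 0.10 between these times (adjusted p = 3.13e-09). DDIT4 was 1.64 ± 0.15 higher at 24 h than at 12 h, GDF15 1.16 ± 0.21, STC2 1.03 ± 0.12, SLC7A11 0.96 ± 0.13 and ASNS 0.94 ± 0.072. ATF4 itself was 0.55 ± 0.077 higher (adjusted p = 7.16e-05), after -0.41 at 12 h against 0 h.

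**Figure D4:**
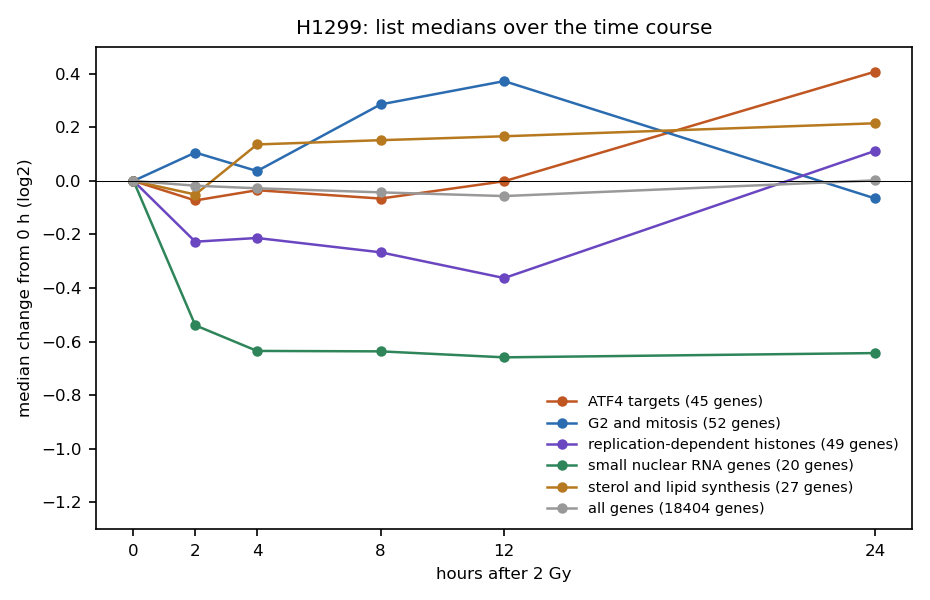
Median change from 0 h (log2, vertical axis) of 5 lists and of all 18404 genes at 2, 4, 8, 12 and 24 h (horizontal axis), with lines joining the medians. The ATF4 targets lie near 0 up to 12 h and at 0.41 at 24 h, the G2 and mitosis genes peak at 0.37 at 12 h, and all changes share the 0 h arrays.

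Mitotic and histone genes differed between these times. Of 52 G2 and mitosis genes 0 were higher and 44 lower at 24 h than at 12 h (median -0.50), and of 49 histone genes 30 were higher and 1 lower (median 0.51; 19 and 1 without 24 h replicate 2). PLK1 was at 0.52 at 12 h and -0.33 at 24 h against 0 h, with -0.84 ± 0.080 between them. H2AC21, a histone H2A gene, was 1.04 ± 0.14 higher at 24 h, H2BC10 1.10 ± 0.21, while CENPE, a kinetochore motor, gave -1.05 ± 0.17. The collagenase gene MMP1 was 0.96 ± 0.13 higher and the growth factor gene TGFB2 gave -0.99 ± 0.12, and neither was called at 24 h against 0 h. TFRC gave -1.15 ± 0.14, the detoxification enzyme gene CYP1B1 -1.002 ± 0.12 and ZBTB41, a zinc finger gene, -1.06 ± 0.15.

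SPRY4, LIF and HBEGF were already high at 12 h. SPRY4 stood at 1.58 at 12 h and 1.43 at 24 h against 0 h, LIF at 1.21 and 1.48, and HBEGF at 0.92 and 0.90, and the differences between the times were not called (adjusted p = 0.224, 0.165 and 0.906). Bitter taste receptor genes, near-identical copies of one another in part, made up 4 of the 10 named decreases from 12 h: TAS2R31 (-1.47 ± 0.23), TAS2R43 (-1.18 ± 0.27), TAS2R4 (-1.15 ± 0.22) and TAS2R19 (-1.15 ± 0.20). The call of TAS2R43 was lost without 12 h replicate 2 or 24 h replicate 1 (adjusted p = 0.0798 and 0.0681). Of 24 such genes 0 were higher and 5 lower at 24 h than at 12 h, against 3.24% and 5.11% of all genes. Their median 0 h level was 3.61, and without detection calls it is not known whether they were above background. At 24 h against 0 h 0 of the 24 were called, and TAS2R31 read 4.55, 4.17 and 4.71 at 24 h against 4.01, 4.62 and 5.08 at 0 h.

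The change in H1299 was also set against the change in H460 over the same 24 h, H1299 minus H460, with 2291 calls (12.4%), 865 genes higher (4.7%) and 1426 lower (7.75%) of 18404. With array width as a covariate the split was 1175 and 1109. Most H460 arrays at 0 h were narrow, with interquartile ranges of 3.14 to 3.39 on replicates 1 to 5 and 3.63 on replicate 6. At 24 h the H460 arrays had 3.59 to 3.73. How far this width enters the H460 changes of single genes and lists was not tested. Of the genes named by the rule ID2 differed most: it fell by 1.35 on the log2 scale in H1299 and rose by 0.78 in H460, a difference of -2.12 ± 0.15 (adjusted p = 6.35e-14). CCN1 gave -0.79 in H1299 and 0.84 in H460, CCN2 -0.33 and 0.93, PLK2 -0.76 and 0.54, and TNFAIP3 -0.45 and 0.76. Among genes higher in H1299, HOXB2, a homeobox gene, gave 0.75 against -0.99 in H460, CDCP1, a surface receptor, 0.62 against -0.73, and G0S2, a lipase inhibitor, 0.83 against -0.57. LIF (1.48 against 0.27), TGFA (0.92 against -0.18) and SLC7A11 (1.30 against 0.07) were called higher in H1299 than in H460.

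**Figure D5:**
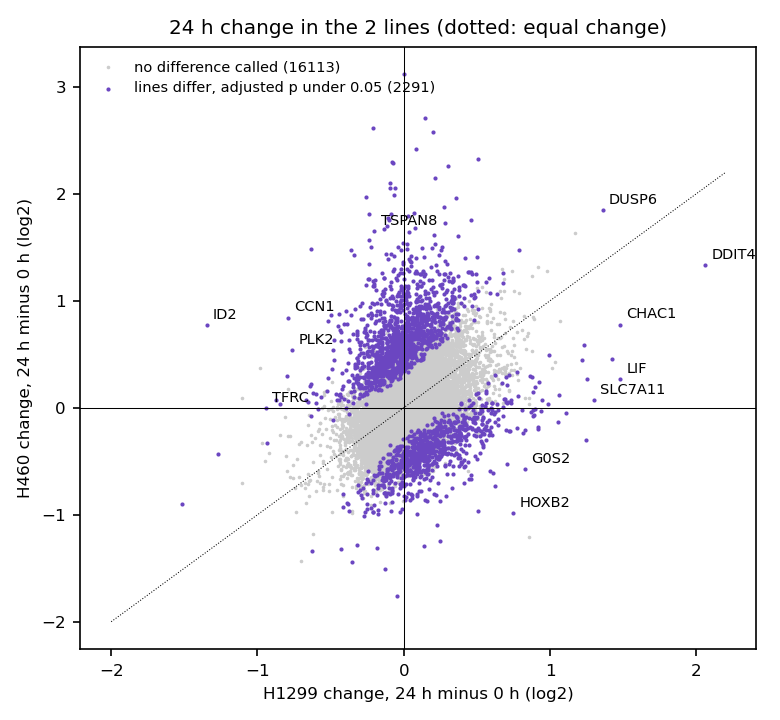
Change from 0 h to 24 h in H460 (log2, vertical axis) against that in H1299 (log2, horizontal axis), 1 point per gene, purple where the lines differed (2291 genes) and grey otherwise, with a dotted line of equal change. ID2, CCN1 and PLK2 lie at upper left, HOXB2 and G0S2 at lower right, and DDIT4 and DUSP6 are high in both.

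The same test, without array width as a covariate, was read over the lists. Of 45 ATF4 targets, 22 rose and 3 fell in H460 (median 0.31), where 16.2% of all genes rose and 12.4% fell, and the difference between the lines was called in 9 for higher and 3 for lower in H1299. CTH, which makes cysteine from cystathionine, was one of the 3, at 0.51 ± 0.12 in H1299 and 2.32 in H460. AARS1 gave 0.69 and 0.70 (difference -0.00 ± 0.14) and PCK2, a mitochondrial gluconeogenic enzyme that was named after its values were seen, 0.62 and 0.60. SPRY4 rose less in H460 (0.46, difference 0.97 ± 0.18) and DUSP6 rose more (1.85, difference -0.49 ± 0.13). Genes of G2 and mitosis were 0 higher and 39 lower in H460 (median -0.53), and 31 of 52 had a called difference, all higher in H1299. Of 45 p53 targets 27 rose and 1 fell in H460, with 12 called differences, all lower in H1299, while CDKN1A (difference -0.11 ± 0.15) and MDM2 (-0.07 ± 0.12) had none called. Lipid synthesis genes were 24 of 27 higher in H460 with 9 called differences, all lower in H1299, and autophagy and lysosome genes were 29 of 44 higher in H460 against 3 of 44 in H1299, with 24 called differences, all lower in H1299.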

How the data were processed

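RNA (100 ng per sample) was profiled on 42 Affymetrix whole-transcript arrays, per the labels' protocols. The deposited values, 1 table of the authors, are on a log2 scale as the values show, and how the authors normalized and summarized the probes is not given in the sources used here. The table held no detection calls. Of 32321 rows, 19158 had 1 gene symbol in GEO's platform annotation, 1388 had several and 11775 were outside that table. Symbols were updated through RefSeq (19128 rows matched). Of the rows of a gene the brightest over all arrays was taken, which set aside 754 rows of 637 genes and left 18404 genes. Among 81 called genes with several rows, all other rows had the same sign in 60, and in 2 (CLK4 and QRFPR) another row was opposite at an unadjusted p under 0.05.

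Means per time point were fitted over the 21 arrays of H1299 (all 42 for the difference between lines) with limma 3.58.1 in R 4.3.3 (lmFit, eBayes with a trend), two-sided, with Benjamini-Hochberg adjustment over 18404 genes and a threshold of 0.05. No set test was made. The members and the 42 lists (1262 genes, 1162 measured) were chosen with earlier results of these data known. Genes were named by rule: the 20 largest called changes in each direction whose arrays did not overlap, up to 6 members per list by smallest p, the 10 largest in each direction in the other comparisons, and CDKN1A, MDM2 and ATF4. Arrays are labelled biological replicates, but nothing says that they came from separate cultures, so the p-values measure the spread between these arrays, and their number limits the precision. No 2 arrays held identical values. The deviations of samples of the same number at 0 h and 24 h had correlations of -0.057, 0.15 and 0.14. Samples of unlike number were not compared in this way, so the check cannot settle the question, and replicates were not paired. On simulated data of this size the test recovered 67 of 100 genes changed by 0.5 and 100 of 100 changed by 1 on the log2 scale at 24 h against 0 h, with 5.65% false calls. The simulated noise was independent between genes and arrays, so effects on a whole array, such as the narrow 0 h replicate 2, were not in it. The rate of false calls in the data is therefore not known from it. Alternatives were another row per gene, a filter on dim genes, other variance estimates, scalings and array sets, array weights and the omission of single arrays. Sequences are from RefSeq tables (GRCh38.p14).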

Additional observations from a re-analysis of the deposited data

Results flagged for a closer look

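Among the 0 h arrays, replicate 2 had an interquartile range of 3.24, far from the other 5 on a test for a single outlying value. Single 0 h arrays stood apart in the same way for 7 of 43 genes checked, where chance gives about 1 in 20: CNIH3 (5.63), RNVU1-15 (7.64), RNVU1-4 (4.55), CCN1 (9.99) and PLK2 (8.34) on replicate 2, BLID (5.36) on replicate 1 and MIR100 (3.26) on replicate 3. These genes were named because their 24 h and 0 h arrays did not overlap, so the absence of overlap is no check on the outlying arrays.

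The changes of 20 genes over 24 h differed between H1299 and H460 by the test of the difference itself (limma, adjusted over all genes). Those lower in H1299 were ID2 (-2.12), LOC388282 (-2.11), TSPAN8 (-1.85), CCN1 (-1.63), BMPER (-1.37), RAB3C (-1.33), PLK2 (-1.31), CCN2 (-1.26), SAT1 (-1.23) and TNFAIP3 (-1.21). Among them TSPAN8, a tetraspanin, gave -0.20 in H1299 (adjusted p = 0.333 in limma) and 1.65 in H460, and SAT1, an enzyme of polyamine breakdown, gave -0.36 and 0.87. BMPER, a secreted modulator of BMP signalling, gave -0.50 and 0.87.

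Those higher in H1299 were HOXB2 (1.74), BLID (1.54), NAV3 (1.47), G0S2 (1.4), CDCP1 (1.35), HAS2 (1.23), SLC7A11 (1.23), CD200 (1.22), LIF (1.21) and MIR100 (1.19). HAS2, which makes hyaluronan, gave 0.70 in H1299 and -0.53 in H460, CD200, a surface glycoprotein, 0.61 and -0.61, and NAV3, a microtubule-binding protein, 0.51 and -0.97. BLID gave 1.24 and -0.30 and MIR100 1.05 and -0.13.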

How the results depend on the processing

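Calls at 24 h against 0 h (2161) fell to 1233 when only the arrays compared entered the fit, and ranged from 1293 to 2408 over the omission of single arrays. At 24 h against 12 h (1536) array weights gave 3726, and the omission of single arrays 523 to 2011. For the difference between the lines (2291) array weights gave 4871, and the omission of single H1299 arrays 1671 to 2969. With replicate number as a block the 3 counts were 1872, 1294 and 1590, and 188 of 203 named called genes kept their call. At 24 h against 0 h the block left 1480 rises and 392 falls, in place of 1570 and 591. The labels give the samples a shared number, and the check of pairing cannot tell whether they share more. Of the 203 named genes 196 kept their call after quantile normalization, 187 after median centring, 198 with array width as a covariate and 201 with array weights. Fewer kept it with smaller sets of arrays. It was 168 with only the arrays compared and 169 with 0 h replicates 4 to 6 only. Without 24 h replicates 1, 2 and 3 it was 176, 175 and 169. Over the named genes and the alternatives run, 0 called changes reversed, a call was lost in 277 cases and gained in 83. The medians of 16 of 42 lists, all within 0.0634 of 0, changed sign under at least 1 alternative. On simulated data with far fewer changed genes than were called here, the difference between the lines recovered 19 of 100 genes changed by 0.5. Fewer changed genes make the adjusted threshold stricter, so this share is not the share of such differences called in these data. Smaller differences between lines may still be missed.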

Other observations

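Zinc finger genes (ZNF symbols), many of them transcriptional repressors, were counted as a class after their values were seen. Of 464 measured, 105 rose (22.6%) and 11 fell at 24 h (median 0.12), against 8.53% and 3.21% of all genes. Without 24 h replicate 3 there were 66 rises and 6 falls. At 12 h against the same 0 h arrays 223 were higher and 24 lower, against 16.6% and 13.1% of all genes. Between 12 h and 24 h 8 were higher and 37 lower, against 3.24% and 5.11% of all genes. That last count was 1 and 8 without 12 h replicate 2, 0 and 9 without 24 h replicate 1, 0 and 11 without 24 h replicate 2, 6 and 18 without 12 h replicate 3 and 2 and 26 without 12 h replicate 1. Genes that restrain mTORC1 or sense nutrients were 8 higher and 1 lower of 25, including RRAGD, a Rag GTPase of the lysosome (0.42), and PRKAA2, a catalytic subunit of the AMP-activated kinase (0.47). The member that fell was ARRDC4, an arrestin-domain gene (-0.66 ± 0.14). Without 0 h replicate 2 the list had 8 rises and 4 falls.

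Of 27 mesenchymal genes 4 rose (14.8%) and 1 fell, against 8.53% and 3.21% of all genes, and without 24 h replicate 2 there were 2 rises and 0 falls. Of 27 epithelial genes 2 rose (7.41%) and 0 fell, and 1 rose without 0 h replicate 1 or any 1 of the 24 h arrays. LAMB3, a laminin chain, was among the rises (0.67 ± 0.096). CHGB, the neuroendocrine granule protein chromogranin B, rose by 0.53 ± 0.13, the 1 rise among 8 neuroendocrine markers. CRH, which encodes corticotropin-releasing hormone (0.83 ± 0.14), ULBP1, a ligand of the NKG2D receptor (0.79 ± 0.091), and ANPEP, an aminopeptidase of the cell surface (0.92 ± 0.10), were named after their values were seen.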
